A study of Mus musculus with 6 samples.

Results

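The 10 genes described here encode effectors and transcriptional targets of the canonical Wnt pathway, taken by name out of the 34981 genes of the series: Ctnnb1, Lef1, Tcf7, Tcf7l1 and Tcf7l2 on the nuclear side, and Axin1, Axin2, Nkd1, Apcdd1 and Rnf43 among the scaffolds and feedback inhibitors. They were measured by RNA sequencing in spheroids of B16F10, an established mouse melanoma line of C57BL/6 origin, embedded in Matrigel, a basement membrane extract. Of 6 libraries, 3 came from spheroids given BMP2, bone morphogenetic protein 2, a secreted signal that acts through SMAD1 and SMAD5, at 100 ng/ml for 10 days, and 3 from spheroids given PBS for the same time. No genetic change is labelled in either group, and the experiment was run 3 times, so that each batch holds 1 BMP2 and 1 PBS library.

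In the canonical pathway a Wnt ligand binds a Frizzled receptor and an LRP coreceptor, and the complex of Axin, APC and GSK3 kinase that marks beta-catenin for degradation is disabled. Stabilised beta-catenin enters the nucleus and binds the TCF and LEF factors, which otherwise hold targets silent together with corepressors. Several targets encode inhibitors that feed back on the pathway, Axin2 being the one most used as a readout. In the melanocyte lineage, Wnt signalling acts in the specification of melanoblasts from the neural crest, and Mitf is a known target. The amount of beta-catenin protein is set largely by its stability, which transcript counts do not measure.

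Library totals lay between 27821900 and 36856500 estimated counts, with 27821900, 34571400 and 36856500 in BMP2 replicates 1, 2 and 3 and 35274700, 36494000 and 32311900 in PBS replicates 1, 2 and 3. The 10 melanocyte lineage markers examined were present in every library, at a summed level of 29780 to 40750 CPM (counts scaled to library size, with trimmed-mean factors between libraries) with BMP2, against 24080 to 27500 CPM with PBS. Of the leukocyte markers, Adgre1 and Tyrobp were among those at 0 in all libraries, and the list summed to 4.20 to 6.55 CPM with BMP2 and 4.86 to 6.49 CPM with PBS. Of these 10 markers 3 could be tested as described below, and none was called. Cd68 was at 2.47 ± 0.53 CPM with BMP2 and 4.30 ± 0.71 CPM with PBS (SD, n = 3 each). Lyz2 went the other way, at 1.98 ± 1.00 and 0.628 ± 0.295 CPM, and Fcer1g was at 0.720 ± 0.398 and 0.649 ± 0.244 CPM. Fibroblast markers summed to 3.86 to 8.05 CPM with BMP2 and 6.02 to 11.02 CPM with PBS. Endothelial markers summed to 5.04 to 15.99 CPM with BMP2 and 6.54 to 9.57 CPM with PBS, and epithelial markers to 0.44 to 0.769 CPM with BMP2 and 0.167 to 0.746 CPM with PBS. Only 4 of the 7 listed epithelial markers had a row that was used. Their sum was mostly Cdh1 and leaves out Krt5, Krt8 and Krt18. Along the first principal component PBS 1 lay at -79.7, away from the other libraries at -16.8 to 55.5, and it had the lowest scaling factor, 0.872.

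None of the 7 genes that could be tested passed the test for a difference between BMP2 and PBS. The other 3 were too low to be tested: Nkd1 and Apcdd1 were at or near 0 in every library, and Lef1 had 1.8 to 10.4 estimated counts. Among the 7, Tcf7, Tcf7l1, Axin1 and Axin2 were lower with BMP2 in all 3 batches and Ctnnb1 was higher in all 3. With edgeR's quasi-likelihood test and Benjamini-Hochberg adjustment, 0 of 7 were called at an adjusted p of 0.05, without or with the batch as a block, against 0.0464% and 0.735% of all 12929 tested genes. Without the block 0.00773% of all tested genes were called higher and 0.0387% lower with BMP2, and with the block 0.371% higher and 0.364% lower. At an unadjusted p of 0.05, 1 of 7 was reached without the block (Axin2) and 3 with it (Tcf7, Tcf7l1 and Axin2), beside 5.38% and 17% of all tested genes. These 3 were lower with BMP2, as were 8.89% of all tested genes at that threshold with the block, while 8.12% were higher. The Wald test of DESeq2 and limma after quantile normalization also called 0 of them.

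Axin2 and Lef1 are both known targets of the TCF and LEF factors and differed here. Axin2 was expressed in every library, while Lef1 had 10.4 estimated counts or fewer in each. For this reason the RefSeq sequence of the 250 bases before 1 start of each is shown (GRCm38.p6, plus strand, 5′ to 3′). Capitals mark a match to the core letters bound by these factors, CTTTGA or CTTTGT, on either strand. The Lef1 window lies before an inner start within the gene and was picked because it held such matches, which the windows of the other 3 Lef1 starts did not, and neither window overlaps an annotated exon.
Axin2, chr11:108920099-108920348: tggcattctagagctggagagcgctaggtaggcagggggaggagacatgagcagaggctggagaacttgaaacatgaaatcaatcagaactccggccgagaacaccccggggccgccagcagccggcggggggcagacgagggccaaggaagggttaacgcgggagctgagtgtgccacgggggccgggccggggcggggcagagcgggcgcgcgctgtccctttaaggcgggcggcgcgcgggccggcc
Lef1, chr3:131156044-131156293: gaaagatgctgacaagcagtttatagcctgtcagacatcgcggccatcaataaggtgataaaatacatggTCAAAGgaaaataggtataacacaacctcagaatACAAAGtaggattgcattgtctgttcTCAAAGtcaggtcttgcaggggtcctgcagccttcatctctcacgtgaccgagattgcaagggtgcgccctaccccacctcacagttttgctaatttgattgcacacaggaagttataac

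The Axin2 window, at 69.2% G and C, held neither form, and the Lef1 window, at 44.8%, held 2 matches to CTTTGA and 1 to CTTTGT. RefSeq gave 15 windows for 8 of the 10 genes, of which 1 held CTTTGA and 3, before Lef1, Tcf7l1 and Tcf7l2, held CTTTGT. Over all 32851 windows of the same length, 13.8% held CTTTGA and 16.5% held CTTTGT. The palindrome GGCGCC, the GC element known from BMP-responsive SMAD1 and SMAD5 binding, occurred in 6 of the 15 windows, belonging to Ctnnb1, Lef1, Tcf7 and Tcf7l2, and in 9.59% of all windows. Windows of 1 gene can overlap: those of 2 Lef1 starts share 224 bases and count the same match, which leaves 7 distinct positions over the 6 windows. The 6 windows held 64.4% to 76% G and C, and the share over all windows was not matched for this. Among the 6, both Lef1 windows lay wholly in annotated exons, as did 178 bases of the Ctnnb1 window and 67 of 1 Tcf7 window. These matches describe letters only, and distal elements were not examined.

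Ctnnb1 encodes beta-catenin, the coactivator through which the pathway acts, and was the most abundant of the 10 genes per length, at 205.6 ± 28.3 CPM per kb of exon with BMP2 and 180.6 ± 22.8 CPM per kb with PBS (SD, n = 3 each; ENSMUSG00000006932, GRCm38 chromosome 9, 120929216 to 120960507). Its level was 933, 1044 and 1224 CPM in BMP2 replicates 1, 2 and 3, against 802, 993 and 1019 CPM in the PBS libraries of the same batches. The groups overlapped, since BMP2 1 lay below PBS 2 and PBS 3, while within each batch the BMP2 library was the higher one. The mean was 1067 ± 147 CPM with BMP2 and 938 ± 119 CPM with PBS (SD, n = 3 each), a log2 fold change of 0.19 (SE 0.20, 95% interval -0.28 to 0.66, edgeR adjusted p 0.894). With the batch as a block the interval was -0.13 to 0.50 (adjusted p 0.495). It was 0.07 without BMP2 3, 0.08 without PBS 1 and 0.44 after quantile normalization with limma. A doubling or halving of the transcript lies outside both edgeR intervals. Some 13.2% of the 31-mers of Ctnnb1 also occur in Ulk4, a gene on the opposite strand, and whether counting used strand is not stated.

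The 4 DNA-binding partners of beta-catenin were far less abundant, and 1 of them made up most of the family. Per kilobase of exon, Tcf7l1, which in mouse embryonic stem cells acts mainly as a repressor of Wnt targets, stood at 6.72, 10.3 and 8.23 CPM per kb in the BMP2 libraries and at 9.94, 19.4 and 9.71 CPM per kb in the PBS libraries. Its share of the summed level of Lef1, Tcf7, Tcf7l1 and Tcf7l2 was 79.5%, 81.1% and 79.2% with BMP2, against 77.6%, 85.4% and 78.7% with PBS. The shares therefore overlapped, with means of 79.9% ± 1.06 and 80.6% ± 4.21 (SD, n = 3 each). Tcf7l2 took 10.8% ± 1.83 with BMP2 and 9.03% ± 2.49 with PBS, and Tcf7 took 9.12% ± 0.907 and 10.3% ± 2.22. Lef1 took 0.167% ± 0.106 with BMP2 and 0.0978% ± 0.0416 with PBS, from a handful of counts. These shares depend on the length used: with the mean length of the coding transcripts, an alternative chosen after the data were seen, Tcf7l2 took 16.2% and 13.7% and Tcf7l1 78.5% and 80.3%. Isoforms that lack the beta-catenin binding domain, known for this family, cannot be seen in values per gene.

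**Figure D1:**
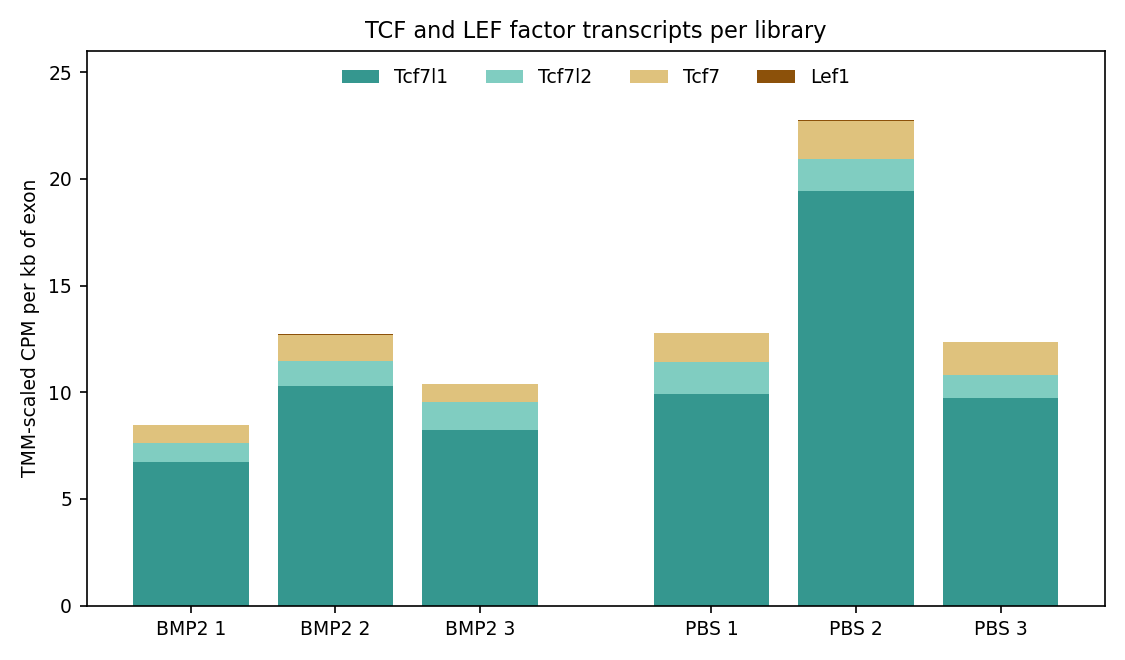
Level of each TCF and LEF factor gene in TMM-scaled CPM per kilobase of exon, stacked, for each of the 3 BMP2 and 3 PBS libraries. Tcf7l1 fills 77.6% to 85.4% of each bar, PBS 2 is the tallest at 22.7 CPM per kb, and Lef1 is too low to be seen in most bars.

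Tcf7l1 (ENSMUSG00000055799, chromosome 6, 72626378 to 72789254) had 26.4, 40.5 and 32.3 CPM in BMP2 replicates 1, 2 and 3, against 39.0, 76.2 and 38.1 CPM in PBS replicates 1, 2 and 3. Batch 2 held the highest library of either group, and BMP2 2 lay above PBS 1 and PBS 3, so that the groups overlapped. Within batches 1, 2 and 3 the log2 differences were -0.56, -0.91 and -0.24. The log2 fold change was -0.63 (SE 0.32, 95% interval -1.36 to 0.10, edgeR adjusted p 0.883), and -0.57 with the block (SE 0.17, adjusted p 0.188), the lowest adjusted p among the 7 tested genes. Without PBS 2 the value was -0.22 and without the whole of batch 2, in the blocked fit, -0.40.

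Tcf7, the gene of TCF1, a factor best known from T cell development, was lower with BMP2 in each batch (ENSMUSG00000000782, chromosome 11, 52252371 to 52283014). It had 2.16, 3.19 and 2.20 CPM with BMP2, against 3.59, 4.72 and 3.98 CPM with PBS. All 3 BMP2 libraries lay below all 3 PBS libraries, as did those of 5.7% of all tested genes. The differences within batches 1, 2 and 3 were -0.72, -0.56 and -0.84 on the log2 scale. The log2 fold change was -0.70 (SE 0.33, 95% interval -1.47 to 0.07, edgeR adjusted p 0.883), or -0.72 with the block (SE 0.27, adjusted p 0.257). The libraries behind these values held 63.1 to 168 estimated counts of Tcf7 each.

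Tcf7l2, the gene of TCF4 and the family member most studied in the intestine, had 7.89, 10.1 and 11.6 CPM with BMP2 and 13.0, 13.1 and 9.70 CPM with PBS. Batch 3 ran the other way from batches 1 and 2, at a log2 difference of 0.26 against -0.72 and -0.38. Its log2 fold change was -0.28 (SE 0.25, 95% interval -0.86 to 0.31, edgeR adjusted p 0.884). It was -0.14 without BMP2 1, and in the blocked fit -0.07 without batch 1 and -0.55 without batch 3.

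Lef1, which in the melanocyte lineage is known as a partner of MITF, was very low (ENSMUSG00000027985, chromosome 3, 131110471 to 131224356). It had 3.7, 10.4 and 2.2 estimated counts in BMP2 replicates 1, 2 and 3, against 4.5, 8.0 and 1.8 in PBS replicates 1, 2 and 3. Both groups were thus at a few counts per library, and the gene did not pass the filter on low counts. The ratio of the group sums, BMP2 over PBS, was 1.10 with an exact 95% interval of 0.504 to 2.44, which covers counting error only. An antisense gene, Gm43352, overlaps 1208 of its 8788 exon bases, so that part of even these counts may belong to the other strand.

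**Figure D2:**
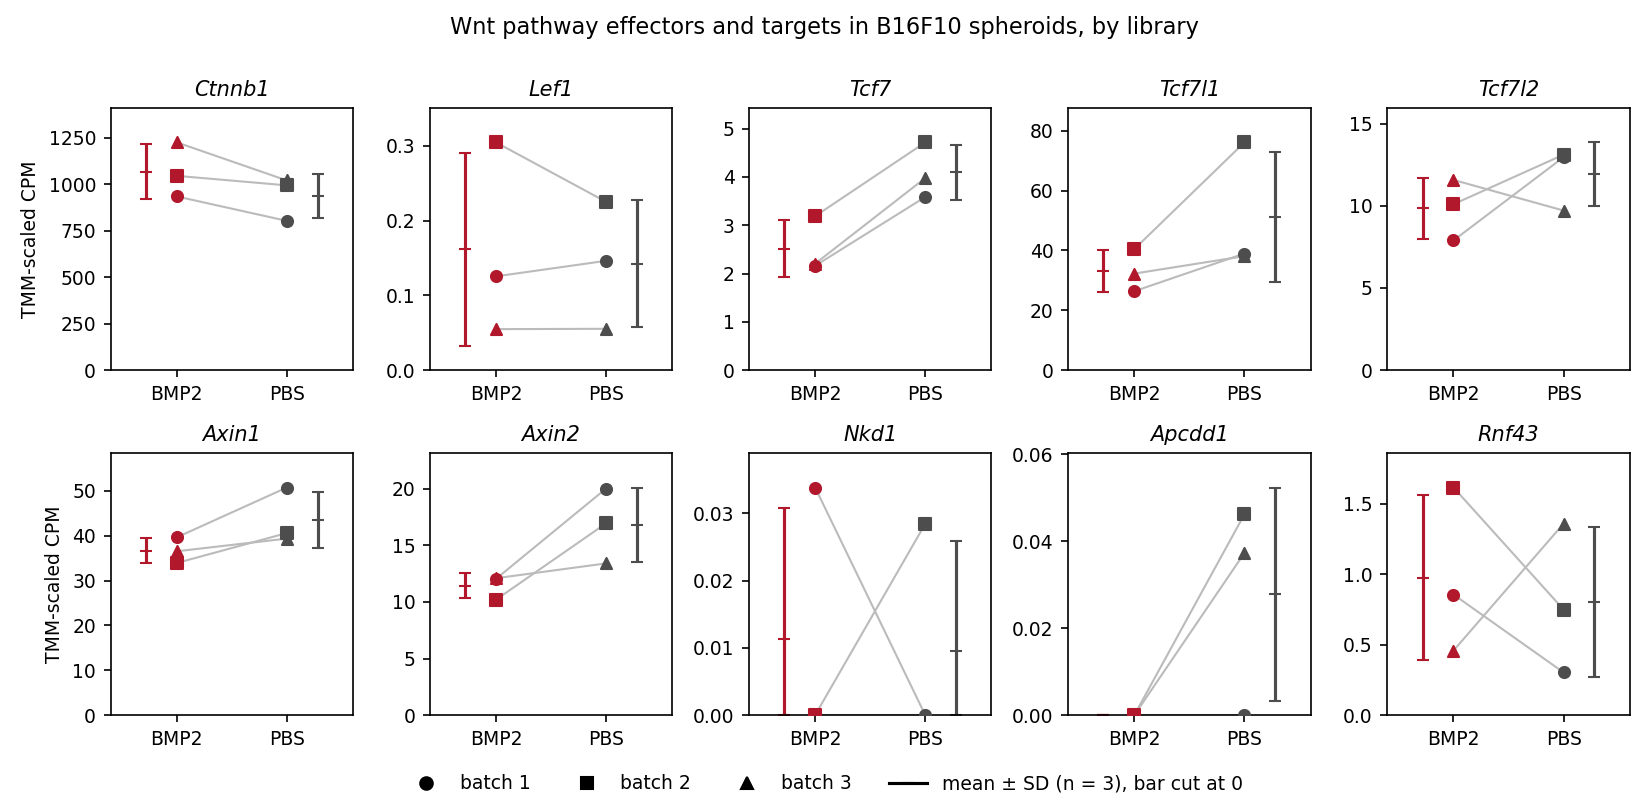
TMM-scaled CPM of each of the 10 genes in BMP2 (left) and PBS (right) libraries on linear axes from 0, with a marker shape per batch, lines joining the libraries of a batch, and mean ± SD (n = 3) beside them. The BMP2 points of Tcf7 and Axin2 all lie below the PBS points, those of the other expressed genes overlap, and Lef1, Nkd1 and Apcdd1 reach no higher than 0.305 CPM.

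Axin2 encodes the scaffold that the pathway induces against itself (ENSMUSG00000000142, chromosome 11, 108920349 to 108950783, promoter sequence above). Its level was 12.0, 10.2 and 12.1 CPM in BMP2 replicates 1, 2 and 3, against 20.0, 16.9 and 13.4 CPM in PBS replicates 1, 2 and 3. The groups did not overlap, which held in the same direction for 5.7% of all tested genes, but in batch 3 the libraries were close. The log2 differences were -0.73, -0.73 and -0.15 in batches 1, 2 and 3. The mean was 11.4 ± 1.1 CPM with BMP2 and 16.8 ± 3.3 CPM with PBS (SD, n = 3 each), a log2 fold change of -0.55 (SE 0.23, 95% interval -1.09 to -0.02, unadjusted p 0.0436, edgeR adjusted p 0.883). The blocked fit gave -0.54 (SE 0.20, adjusted p 0.25). Without PBS 1 the log2 fold change was -0.42.

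Axin1, the scaffold that is present whether or not the pathway is active, differed less between groups (ENSMUSG00000024182, chromosome 17, 26138688 to 26195811). It had 39.7, 33.9 and 36.6 CPM with BMP2, against 50.8, 40.6 and 39.4 CPM with PBS. BMP2 1 overlapped the PBS range, and the log2 differences of -0.36, -0.26 and -0.11 were all below 0. The log2 fold change was -0.25 (SE 0.19, 95% interval -0.68 to 0.19, edgeR adjusted p 0.883), and -0.13 without PBS 1. Per kilobase of exon, the level of Axin2 was 0.211, 0.209 and 0.23 times that of Axin1 in the BMP2 libraries, against 0.274, 0.29 and 0.237 times in the PBS libraries. These ratios did not overlap, although BMP2 3 and PBS 3 nearly met, and no share over other pairs of genes was computed. With 3 against 3 libraries an exact permutation test that ignores the batches cannot give a two-sided p below 0.1. Swapping only within batches allows fewer arrangements, so its limit is higher.

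The remaining feedback inhibitors were low. Rnf43, a membrane ubiquitin ligase that removes Frizzled receptors from the cell surface, had 0.857, 1.62 and 0.459 CPM with BMP2, against 0.303, 0.749 and 1.36 CPM with PBS. It was higher with BMP2 in batches 1 and 2, by 1.38 and 1.03 on the log2 scale, and lower in batch 3, by a log2 difference of -1.47. Its log2 fold change of 0.27 (SE 0.69, 95% interval -1.30 to 1.85, edgeR adjusted p 0.95) left the direction undetermined, and the sign turned to -0.32 without BMP2 2 and to -0.13 without PBS 1. Nkd1, which binds Dishevelled and is induced by Wnt signalling in many tissues, had 1.0 estimated count in either group in all. Apcdd1, a membrane glycoprotein that inhibits Wnt signalling, had 0 counts over the BMP2 libraries and 2.9 over the PBS libraries. At 3 counts a library the limit of detection was 0.0749 to 0.103 CPM, so no fold is given for these 2 genes.

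**Figure D3:**
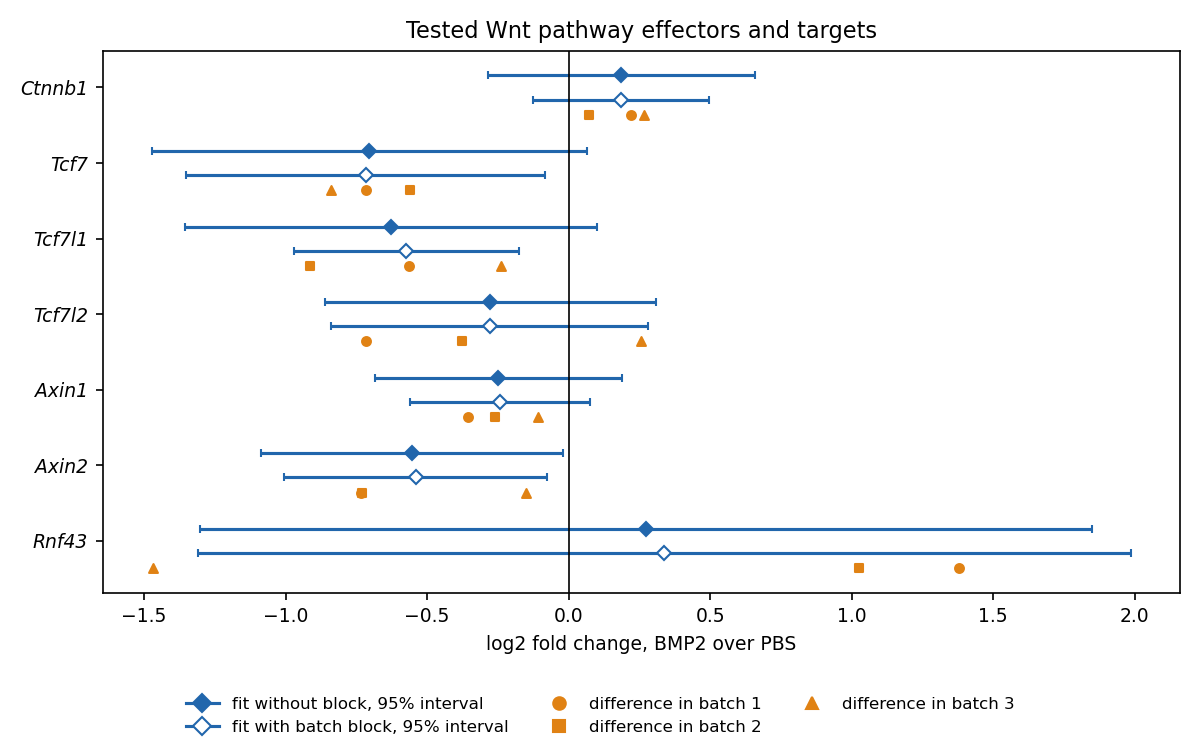
Log2 fold change, BMP2 over PBS, of the 7 tested genes: filled diamonds are the fit without the block, open diamonds the fit with the batch block, lines their unadjusted 95% intervals, and orange markers the difference within each batch. Tcf7, Tcf7l1, Axin1 and Axin2 lie left of 0 in each batch, Ctnnb1 lies right of 0, and Tcf7l2 and Rnf43 have batch 3 on the opposite side from batches 1 and 2.

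The median log2 fold change of the 7 was -0.28, against 0.01 over all tested genes, and the batches gave -0.56, -0.38 and -0.15. Of the 7, 4 were lower in all 3 batches and 1 was higher, as were 21.1% and 22.8% of all tested genes, or 43.9% in either direction. By the differences within batches, the gene nearest to Tcf7l1 among the other 6 and 75 tested genes of 8 further Wnt lists was Axin2, and the reverse also held, at a mean absolute difference of 0.15 on the log2 scale. Over all tested genes, 41 were nearer to Tcf7l1 than Axin2 was, and 71 nearer to Axin2 than Tcf7l1. The nearest to Tcf7 was Dact3, the gene of a Dishevelled-binding inhibitor, at 0.25, with 406 of all tested genes nearer. Melanocyte lineage markers were higher with BMP2 in each batch for 10 of 10 genes. Of them 2, Gpr143 and Trpm1, were called higher in the blocked fit (edgeR adjusted p 0.019 and 0.036), as were 0.371% of all tested genes. Neither passed without the block (0.883 and 0.833). The part of the lineage markers in the values of the Wnt genes was not tested.

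The rest of the pathway was examined through 8 lists of ligands, receptors, antagonists, cytoplasmic components, cofactors and targets, with 120 genes in the table. Of these, 75 were tested and 0 were called by edgeR without or with the block. At an unadjusted p of 0.05, 6 of the 75 were reached without the block and 18 with it, or 24% against 17% of all tested genes, 9 higher and 9 lower with BMP2. Their median log2 fold change was -0.04.

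Of 18 Wnt ligand genes in the table, 4 were tested and 6 had 0 counts in all libraries. Wnt4, a ligand required in kidney and ovary development, had the largest fold change of the named pathway genes. It had 0.903, 6.98 and 2.01 CPM in the BMP2 libraries, from 26.4, 239.0 and 80.6 estimated counts, against 0.236, 0.119 and 0.215 CPM in the PBS libraries, from 7.3, 4.2 and 7.2 counts. Every BMP2 library was above every PBS library, as for 6.4% of all tested genes. The log2 fold change was 4.15 (SE 0.85, edgeR adjusted p 0.297), and 3.72 with the block (SE 0.76, adjusted p 0.105), so Wnt4 did not pass in either fit. DESeq2's Wald test called it, at adjusted p of 0.000146 without and 6.98e-05 with the block. Without BMP2 2, which held 239 of the 346 BMP2 counts, the log2 fold change was 2.97. Blocked edgeR fits called it without batch 1 or batch 3 (adjusted p 0.018 and 0.00753) but not without batch 2, where it was 2.63 (0.308). Wnt11, a ligand that acts mostly outside the beta-catenin branch, had 1.08, 0.866 and 0.116 CPM with BMP2 and 1.80, 3.36 and 1.24 CPM with PBS. Its log2 fold change was -1.64 (SE 0.75, edgeR adjusted p 0.883), and -1.86 in the blocked fit (SE 0.54, adjusted p 0.188). Wnt3a and Wnt8a, canonical ligands, were among those at 0.

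Wls, the carrier that brings Wnt proteins to the cell surface, was at 378.5 ± 30.4 CPM with BMP2 and 301.5 ± 7.33 CPM with PBS (SD, n = 3 each). Its groups did not overlap, as for 6.4% of all tested genes with BMP2 above. Porcn, the enzyme that adds the lipid of Wnt proteins, was at 11.8 ± 5.7 CPM with BMP2 and 15.9 ± 4.0 CPM with PBS. Neither passed, the edgeR adjusted p being 0.883 and 0.886 without the block and 0.279 and 0.293 in the blocked fit. Of the R-spondin system, which protects Frizzled receptors from Rnf43 and Znrf3, the receptor gene Lgr4 was at 14.1 ± 2.2 CPM with BMP2 and 23.2 ± 6.6 CPM with PBS. Its differences in batches 1, 2 and 3 were -0.08, -0.66 and -1.35. Lgr6 was higher with BMP2 in batch 1, by 0.60, and lower in batches 2 and 3, at -1.42 and -1.62. Neither passed, at edgeR adjusted p of 0.839 and 0.898 without the block and 0.251 and 0.39 with it. Only when batch 1 was left out of the blocked fit were both called (0.042 and 0.0138).

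Among 13 tested receptor genes, 3 were higher and 6 lower with BMP2 in all 3 batches, beside 22.8% and 21.1% of all tested genes. By log2 fold change 3 were above 0 and 10 below, with a median of -0.32, against 0.01 over all tested genes. Lower in each batch were Fzd7 (-0.46, SE 0.23) and the coreceptor gene Lrp5 (-0.32, SE 0.39). Their edgeR adjusted p was 0.883 and 0.897 without the block and 0.247 and 0.257 with it. The 2 genes with the smallest p in the blocked fit were both higher. The Frizzled gene Fzd1 had 6.59, 11.8 and 15.8 CPM with BMP2 against 3.87, 7.87 and 8.43 CPM with PBS, at log2 differences of 0.76, 0.58 and 0.90 in batches 1, 2 and 3, and Fzd6 had a log2 fold change of 0.99 (SE 0.59). Neither passed, at an edgeR adjusted p of 0.883 for both without the block and of 0.155 and 0.2 in the blocked fit. Of the secreted antagonists, Dkk3 was more abundant than Sfrp4, at 52.9 ± 2.9 CPM per kb with BMP2 and 45.6 ± 6.0 CPM per kb with PBS, while Sfrp4 was at 0.181 ± 0.058 CPM per kb with BMP2 and 0.0927 ± 0.0297 CPM per kb with PBS (SD, n = 3 each). Both had an edgeR adjusted p of 0.883 without the block, and 0.409 and 0.321 with it. Dkk1, Sfrp1 and Wif1 did not pass the filter on low counts.

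In the destruction complex, Gsk3b, the kinase that marks beta-catenin, had 95.3, 125 and 108 CPM with BMP2, against 170, 154 and 133 CPM with PBS. The groups did not overlap, as for 5.7% of all tested genes with BMP2 below. The log2 fold change was -0.48 (SE 0.19, edgeR adjusted p 0.883, and 0.221 with the block). Apc2, a relative of Apc expressed mainly in neurons, was at 0.642 ± 0.143 CPM with BMP2 and 0.124 ± 0.077 CPM with PBS, from 15.1, 20.8 and 32.0 estimated counts in BMP2 1, 2 and 3 and 2.3, 7.6 and 2.8 in PBS 1, 2 and 3. As 2 of the PBS values lie below the limit of 3 counts, its plotted fold change rests on a few counts, and the gene did not pass (edgeR adjusted p 0.548, and 0.152 with the block). Among cofactors, the deacetylase gene Hdac1 was at 104 ± 15 CPM with BMP2 and 83.3 ± 9.6 CPM with PBS, with 40% of its 31-mers found in further genes. Ctnnbip1, an inhibitor that keeps beta-catenin off the TCF factors, had a log2 fold change of 0.70 (SE 0.38), with 25.1% of its 31-mers shared. Both missed the threshold, at an edgeR adjusted p of 0.883 without the block and of 0.286 and 0.335 in the blocked fit.

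The transcriptional targets did not share a direction. By log2 fold change, 7 of the 12 tested were above 0 and 5 below. Of the 12, 3 were higher and 1 was lower with BMP2 in all 3 batches, beside 22.8% and 21.1% of all tested genes. Myc, and Axin2 from outside this list, stood opposite to Ccnd1. None of these genes passed in edgeR on all libraries, without or with the block. Ccnd1, the gene of cyclin D1, had 77.5, 118 and 192 CPM with BMP2, against 37.6, 91.1 and 93.5 CPM with PBS, and was higher in each batch, by 1.04, 0.38 and 1.03 on the log2 scale, with 22.3% of its 31-mers shared with further genes. Myc, a growth-promoting transcription factor, had 14.2, 13.9 and 19.6 CPM with BMP2, against 41.6, 33.0 and 25.8 CPM with PBS. These groups did not overlap, as for 5.7% of all tested genes with BMP2 below. The log2 fold changes were 0.80 (SE 0.42) for Ccnd1 and -1.07 (SE 0.25) for Myc, with edgeR adjusted p of 0.883 and 0.387 without the block and 0.107 and 0.125 with it. The value of Ccnd1 was 0.40 without BMP2 3 and 0.48 without PBS 1. DESeq2's Wald test with the block called both (adjusted p 0.00183 and 0.00134), and edgeR with the block called Myc when batch 3 was left out (0.00315). Some further named genes also depended on single libraries. Without BMP2 3 the log2 fold change was -0.08 for Porcn, -0.07 for Lgr6, 0.45 for Fzd1, 0.19 for Hdac1 and 0.47 for Ctnnbip1. Without PBS 1 it was 0.48 for Fzd1, 0.23 for Hdac1 and 0.56 for Fzd6, and without PBS 3 it was 0.11 for Dkk3. Without BMP2 1, Lgr6 was at -1.46. Mitf, also a lineage marker, had 310.2, 264.7 and 318.7 CPM with BMP2, against 189, 206.5 and 201.6 CPM with PBS. Its groups did not overlap, as for 6.4% of all tested genes with BMP2 above. The log2 fold change was 0.58 (SE 0.175, edgeR adjusted p 0.687, and 0.1415 with the block). Sp5, a target induced by Wnt signalling in many cell types, had 0 counts in all libraries.

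**Figure D4:**
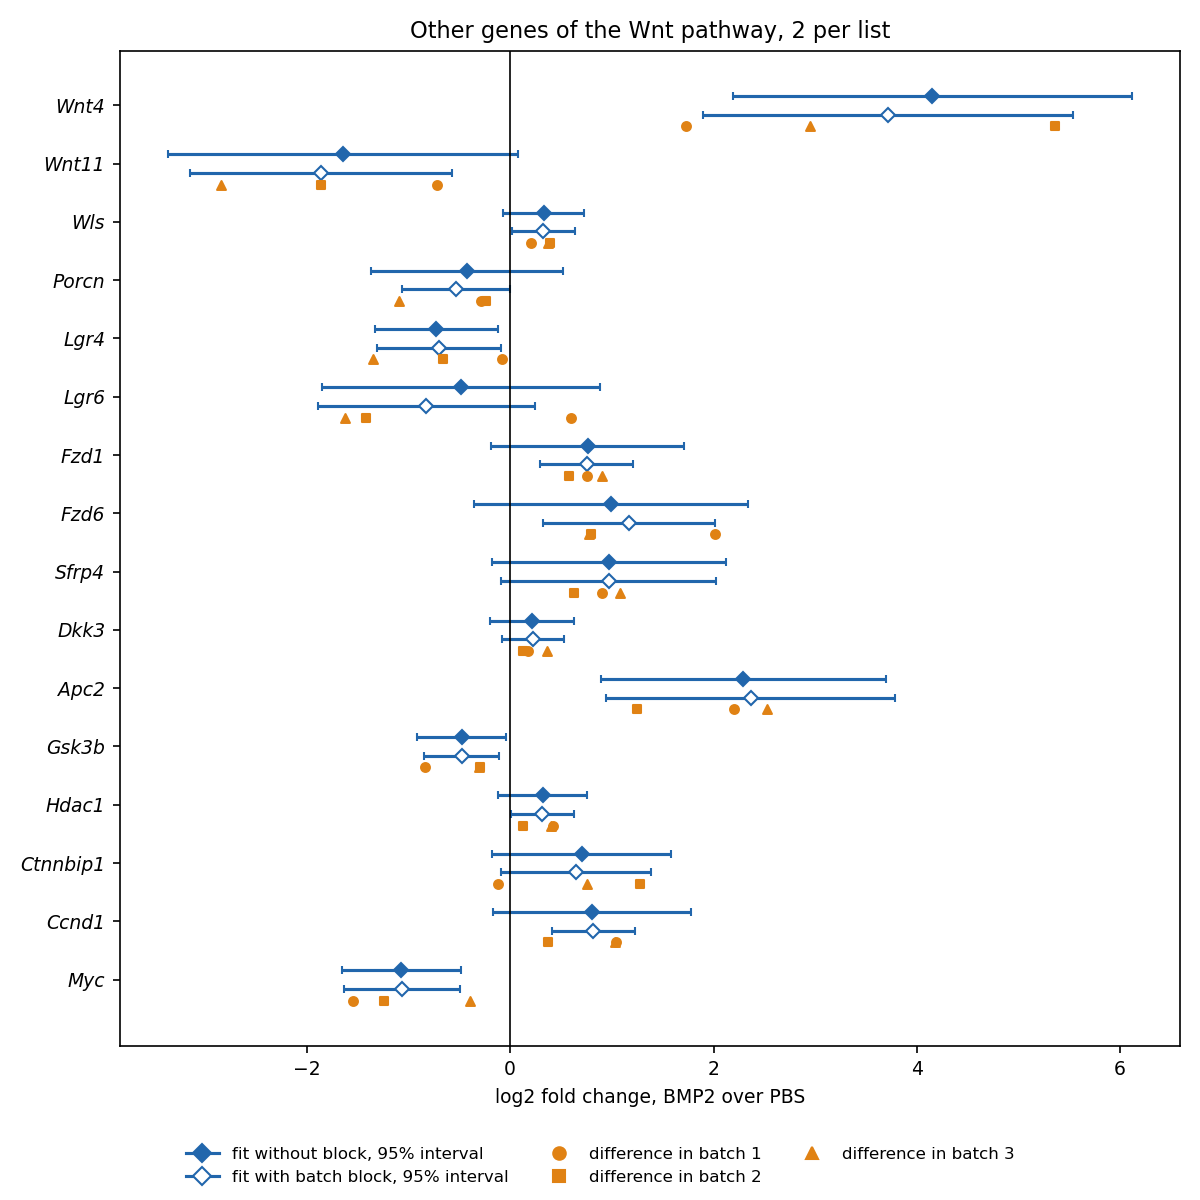
Log2 fold change, BMP2 over PBS, of the 2 genes with the smallest unadjusted p in the blocked fit from each of 8 further Wnt lists, in the order ligands, ligand release, R-spondin receptors, receptors, antagonists, cytoplasmic components, cofactors and targets. Filled and open diamonds are the fits without and with the batch block with unadjusted 95% intervals, orange markers the batches, and Wnt4 lies farthest to the right at 4.15.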

How the data were processed

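Gene expression was measured in 3 BMP2 and 3 PBS libraries. The authors deposited estimated counts per gene. The submitters' processing notes name kallisto 0.44.0 and GRCm38.p6. The annotation release, any use of strand and the step from transcripts to genes are not stated there. Only 0.61% of nonzero values lay within 0.001 of a whole number, and they were rounded before testing. Whether they were rescaled by transcript length is not known. If so, a value is not a number of reads, and values per kb and the counting interval of Lef1 are approximate. Identifiers were matched to GENCODE M21 on GRCm38 (34679 of 34981), which also gave exon lengths, and 3 genes of the lists had no row that was used.

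After the default low-count filter of edgeR 4.0.16 (R 4.3.3) and trimmed-mean (TMM) scaling, 12929 genes were fitted with treatment alone (4 residual degrees of freedom) by the quasi-likelihood test, with Benjamini-Hochberg adjustment over all of them. Log2 fold changes are BMP2 over PBS, with SE worked back from the F statistic. Differences within batches used log2 CPM with a prior count of 2. The labels state that replicate numbers mark shared batches, and deviations from group means correlated at 0.51, 0.25 and 0.52 between same-batch libraries, so the fit with batch as a block (2 residual degrees of freedom) was run as well. Alternatives were no filter, DESeq2 1.42.0 size factors or Wald test, quantile normalization with limma 3.58.1, and leaving out libraries or batches.

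Beside the 10 genes, the text names, from each of 8 Wnt lists, the 2 genes with the smallest unadjusted p in the blocked fit. A few others (such as Sp5, Dkk1, Mitf, Fzd7 and Lrp5) were named after their values were seen. Members and lists were chosen with earlier results of these data known. The fits were also run on simulated counts with the same dispersion for every gene and no outlying library. That setting is simpler than these data, so it does not show how the fits perform here. Intervals and detection limits from counts cover counting error only. In bulk libraries, fewer cells of a type and less RNA per cell cannot be told apart.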

Additional observations from a re-analysis of the deposited data

How the results depend on the processing

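None of the 7 tested genes was called under any of the 18 alternatives, and Ctnnb1, Tcf7, Tcf7l1, Tcf7l2, Axin1 and Axin2 kept their direction in each, the lowest adjusted p being 0.0631 for Tcf7l1 (DESeq2 Wald test with the block; up to 0.9999 elsewhere). Rnf43 turned to -0.32 without BMP2 replicate 2, -0.13 without PBS replicate 1, and, in the blocked fit, -0.21 without batch 1 and -0.11 without batch 2, while its highest values were 0.87 without PBS replicate 3 and 1.28 in the blocked fit without batch 3. The median of the 7 was -0.22 to -0.41 without 1 library and -0.21 to -0.55 in the blocked fit without 1 batch.

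Over all genes, 6 were called without the block and 95 with it. The count was 35 with no filter, 130 with the DESeq2 Wald test, and, with the replicate block, 653 with the Wald test, 98 with DESeq2 size factors, 500 with no filter and 116 with quantile normalization. It was 2 to 10 without 1 library and, with the block, 531, 27 and 218 without batch 1, 2 or 3. Of the pathway lists, 2 genes were called by the Wald test (Wnt4 and Myc), 4 by the Wald test with the block or by edgeR with the block and no filter (these and Ccnd1 and Mitf), and 0 to 3 by the block without 1 batch. The causes were not tested. Leaving out 1 batch leaves the blocked fit 1 residual degree of freedom. Depth limits Lef1, Nkd1 and Apcdd1, whose values rest on a few counts.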
